A study of Mus musculus with 15 samples.

Results

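The genes described here are 10 genes of intestinal bile acid handling, taken by symbol from the 45808 rows of a table of cecal gene expression. They are the uptake transporter Slc10a2, the cytosolic binding protein Fabp6, the exporters Slc51a, Slc51b, Abcc2 and Abcc3, the receptors Nr1h4 (FXR) and Gpbar1 (TGR5), and Nr0b2 and Fgf15, which are known as outputs of FXR. All 10 were found, and 6 passed the filter for testing. RNA was sequenced from the emptied cecum of wild-type (WT) C57BL/6 mice, 7 given antibiotics (vancomycin, ampicillin, metronidazole and neomycin) with the antifungal amphotericin B by gavage (antibiotic-induced microbiome depletion, AIMD) and 8 given water (vehicle-treated). Treatment lasted 30 days, the labels give an age of 20 weeks for both groups, and the mice were males on normal chow. Each library came from 1 whole cecal wall, so fewer cells of a type and less RNA per cell cannot be told apart.

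Bile acids are made in the liver, modified by gut bacteria and taken back up from the intestinal lumen. In enterocytes, mainly of the ileum, they enter through Slc10a2 on the luminal side, are carried by Fabp6 and leave at the basolateral side through the paired subunits Slc51a and Slc51b. Bile acids activate FXR, which partners with RXR and is known to raise Fabp6, Slc51a, Slc51b, Nr0b2 and, in the ileum, Fgf15, the hormone that lowers bile acid synthesis in the liver.

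The DNA in front of 4 of the genes is printed because these genes span the route from uptake to export and gave different results. The sequences are from RefSeq, build GRCm38.p6, whose promoter table held 8 of the 10 genes, and each run begins 250 bases before the RefSeq start. It stops at that start or, where the GENCODE gene begins earlier, at the gene. Capitals mark AGGTCA, the half-site of many nuclear receptors, or the same letters on the opposite strand. Both strands were searched, and the motif was chosen after the promoters had been read and other motifs had been tried.
Slc10a2 (chr8:5105352-5105537, minus strand): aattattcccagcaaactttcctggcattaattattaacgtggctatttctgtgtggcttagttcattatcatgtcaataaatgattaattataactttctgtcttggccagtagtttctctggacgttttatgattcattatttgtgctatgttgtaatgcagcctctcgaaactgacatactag
Fabp6 (chr11:43601563-43601812, minus strand): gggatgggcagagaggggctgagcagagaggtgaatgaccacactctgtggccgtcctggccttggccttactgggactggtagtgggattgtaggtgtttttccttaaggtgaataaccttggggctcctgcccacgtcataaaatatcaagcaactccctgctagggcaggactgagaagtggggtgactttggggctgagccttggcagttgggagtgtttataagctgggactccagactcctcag
Slc51b (chr9:65422956-65423023, minus strand): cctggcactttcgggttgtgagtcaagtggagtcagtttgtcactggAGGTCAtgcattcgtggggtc
Slc51a (chr16:32487880-32488129, minus strand): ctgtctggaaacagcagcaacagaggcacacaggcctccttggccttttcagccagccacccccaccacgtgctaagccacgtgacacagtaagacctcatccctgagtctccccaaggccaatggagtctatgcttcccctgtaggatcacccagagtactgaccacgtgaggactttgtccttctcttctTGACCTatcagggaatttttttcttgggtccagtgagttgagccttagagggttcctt
The half-site began 203 bases before the RefSeq start of Slc51b and, on the opposite strand, 58 bases before that of Slc51a. The printed runs of Slc10a2 and Fabp6 did not hold these exact letters, and inexact forms of the half-site are not marked in any run. Over whole windows of 300 bases, the half-site occurred in 4 of the 8 genes (Slc51a, Slc51b, Abcc2 and Nr1h4) and in 16.3% of 32851 promoters. A match is a description of the letters and not of binding.

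Expression is given as FPKM, read counts scaled by gene length and by sequencing depth. The AIMD libraries held 8679673 to 18108581 reads on genes and the vehicle libraries 4372415 to 14405947. Differences were tested with limma on log2(FPKM + 0.5), a scale that understates the change of low genes, with Benjamini–Hochberg adjustment over 11983 genes. Of the 6 tested bile acid genes, 3 were significantly higher in AIMD mice and 0 lower, beside 36.1% of all tested genes called in either direction, with 19.4% higher and 16.7% lower. The median difference of the 6 genes was 0.33, beside 0.01 over all tested genes. In 4 mice, AIMD replicate 6 and vehicle replicates 5, 7 and 8, Sis (sucrase-isomaltase, a digestive enzyme of the small intestine) was at 2.33 to 4.62 FPKM, beside 0 to 0.552 in the other 11. Where a call on a bile acid gene changed without these 4 mice, that value is given beside it.

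**Figure D1:**
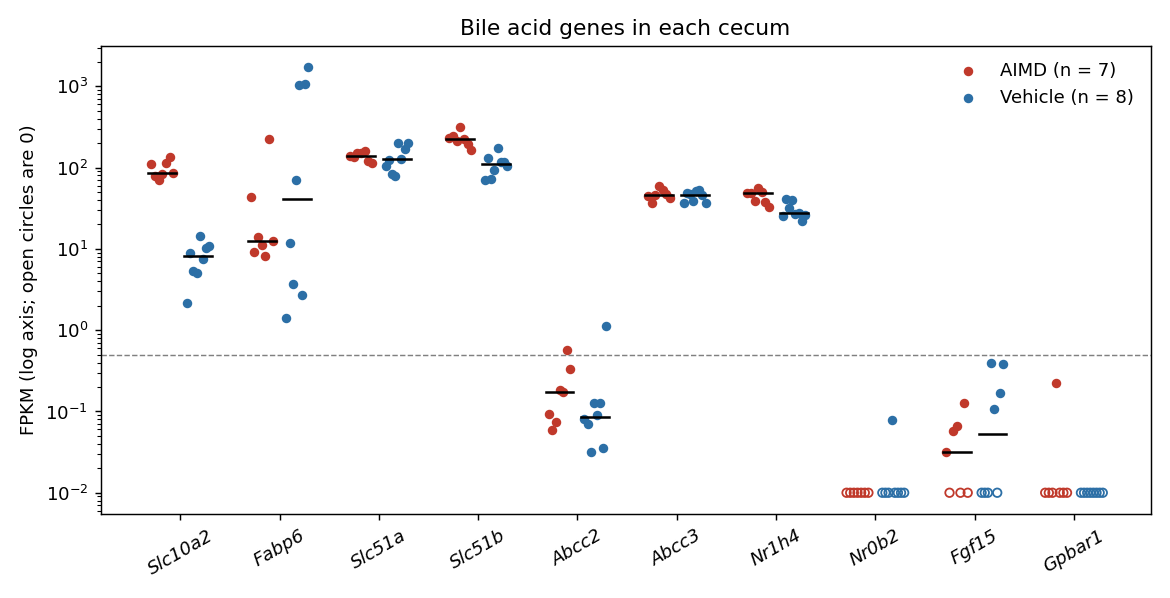
FPKM of each bile acid gene in each mouse, on a log axis, with AIMD mice in red, vehicle-treated mice in blue, medians as black lines and the filter at 0.5 FPKM as a dashed line. Slc10a2 is the gene whose groups are fully apart, while Abcc2, Nr0b2, Fgf15 and Gpbar1 lie almost wholly under the filter.

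Slc10a2, the sodium-dependent transporter that brings bile acids in from the lumen, rose in AIMD mice. Its level was 70.2 FPKM in the lowest AIMD mouse, 86.8 in the median and 135 in the highest. In vehicle-treated mice the lowest was 2.17 FPKM, the median 8.16 and the highest 14.3. Every AIMD mouse was above every vehicle-treated mouse, which held for 5.26% of all tested genes. The means were 97.0 ± 23.5 (SD, n = 7) and 8.05 ± 3.86 FPKM (SD, n = 8), and the log2 difference was 3.63 (standard error 0.28, limma adjusted p = 1.84e-07). In order of log2 difference it ranked 2 among the 11983 genes. An exact permutation test, run over all ways to divide the mice, gave p = 0.000155, the smallest it can give.

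Fabp6, the ileal protein that carries bile acids through the cell, varied widely among the mice of both groups. In AIMD mice its level was 8.09 FPKM in the lowest mouse, 12.5 in the median and 225 in the highest. In vehicle-treated mice the lowest was 1.42 FPKM, the median 40.8 and the highest 1718. The groups overlapped, and the difference of -1.27 on the log2 scale did not pass the test (standard error 1.45, 95% interval -4.31 to 1.78, limma adjusted p = 0.522). The 4 highest values were those of the 4 mice with Sis of at least 1 FPKM, of 225, 1041, 1062 and 1718 FPKM, and no other mouse was above 69.8. Of 20 small-intestine markers in the table, 6 were higher in all 4 of these mice than in all 11 others. Apoa1 and Defa24 were among these and were named after their values were seen. Apoa1, an apolipoprotein, was at 51.1 to 196 FPKM in the 4 mice and at 0.174 to 48.0 in the others. Defa24, a Paneth cell defensin, was at 5.45 to 9.27 FPKM and at 0 to 1.72. The summed level of the 20 markers was 273 to 518 FPKM in AIMD mice, against 225 to 607 in vehicle-treated mice. Of the 14 that were tested 4 were higher with AIMD and 0 were lower, beside 19.4% and 16.7% of all tested genes. With the level of Sis as a covariate the Fabp6 difference was -0.52 on the log2 scale (limma adjusted p = 0.524). The part of these markers in the result was not tested beyond the fits given here. Lct and Gata4 stayed under 0.2 FPKM in all mice. Without the 4 mice the Fabp6 difference was 0.93 on the log2 scale, of the opposite sign and again not significant (limma adjusted p = 0.364).

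**Figure D2:**
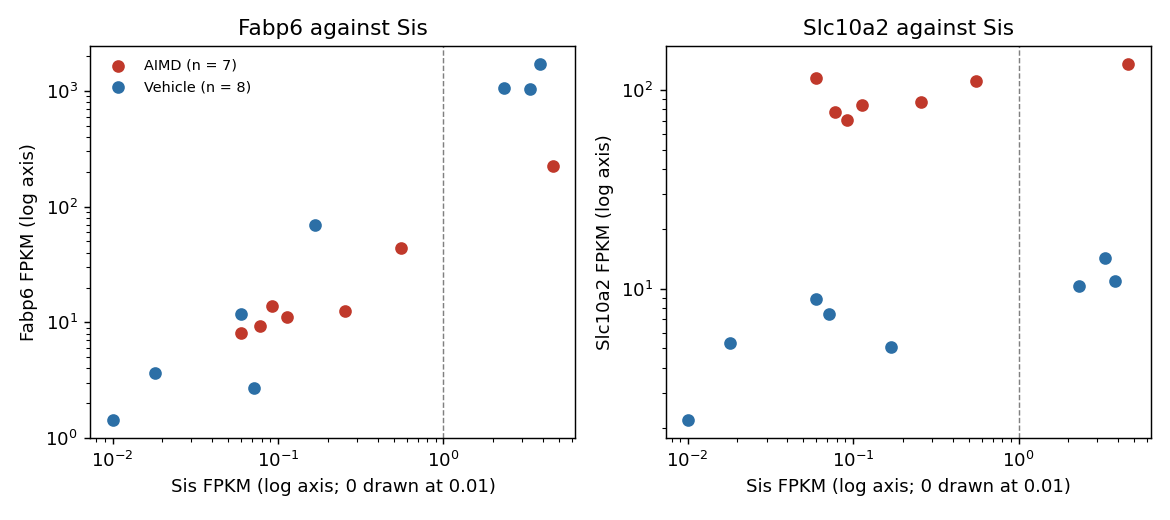
FPKM of Fabp6 (left) and Slc10a2 (right) against FPKM of Sis in each mouse, both on log axes, with the level of 1 FPKM of Sis as a dashed line. The 4 mice to the right of the line hold the 4 highest Fabp6 values, while Slc10a2 separates the groups on both sides of the line.

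Slc51b, the smaller subunit of the basolateral exporter, rose in AIMD mice. Its level was 163 FPKM in the lowest AIMD mouse, 224 in the median and 315 in the highest. In vehicle-treated mice it was 71.1, 110 and 173 FPKM. Of the 7 AIMD mice, 6 were above the highest vehicle-treated mouse. The means were 227 ± 47.0 (SD, n = 7) and 110 ± 33.1 FPKM (SD, n = 8), a log2 difference of 1.07 (standard error 0.18, limma adjusted p = 0.000344). The exact permutation test gave p = 0.000466.

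Slc51a, the larger subunit of the same exporter, did not pass the test over all mice. Its level was 113 to 162 FPKM in AIMD mice, with a median of 138, against 78.2 to 199 FPKM in vehicle-treated mice, with a median of 127. The vehicle range enclosed the AIMD range. The log2 difference was 0.10 (standard error 0.20, limma adjusted p = 0.707). Without the 4 mice with Sis of at least 1 FPKM it was 0.46 and passed the threshold of 0.05 (limma adjusted p = 0.0400, where 30.3% of genes were called). Slc51a shares 16.2% of its 50-base windows with Pcyt1a, on the opposite strand, and Slc51b shares 6.52% with Rasl12. Pcyt1a was at 11.4 to 25.5 FPKM and Rasl12 at 0.103 to 0.707 FPKM over all mice, and the strand setting of the counting is not given in the sources used here.

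The balance of the pair differed between the groups. Slc51b was at 1.38 to 2.05 times the FPKM of Slc51a in the 7 AIMD mice, against 0.525 to 1.20 times in the vehicle-treated mice. The ratio was above 1 in 7 of 7 AIMD mice, against 2 of 8 vehicle-treated mice. The log2 ratio was higher by 0.97 in AIMD mice (exact permutation test, p = 0.000311, or 0.000777 when adjusted over 5 ratios by Benjamini–Hochberg). The lengths behind the FPKM differ from the GENCODE exon lengths for both subunits. With the GENCODE lengths the medians of the ratio became 2.23 and 1.19, the ratio was above 1 in 7 of 7 and 5 of 8 mice, and the difference between groups is the same by construction. The log2 ratio of Slc10a2 to Slc51b was higher by 2.56 in AIMD mice (exact permutation test, adjusted p = 0.000777). The log2 ratio of Fabp6 to Slc10a2 was lower by a difference of -4.90 (exact permutation test, adjusted p = 0.00680), and by -3.02 without the 4 mice with Sis of at least 1 FPKM (adjusted p = 0.00361). The ratio of Abcc2 to Abcc3 differed by 0.01 (exact permutation test, adjusted p = 0.985). Nr0b2 was at 0 in nearly every mouse, so its ratio to Nr1h4 only follows Nr1h4.

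**Figure D3:**
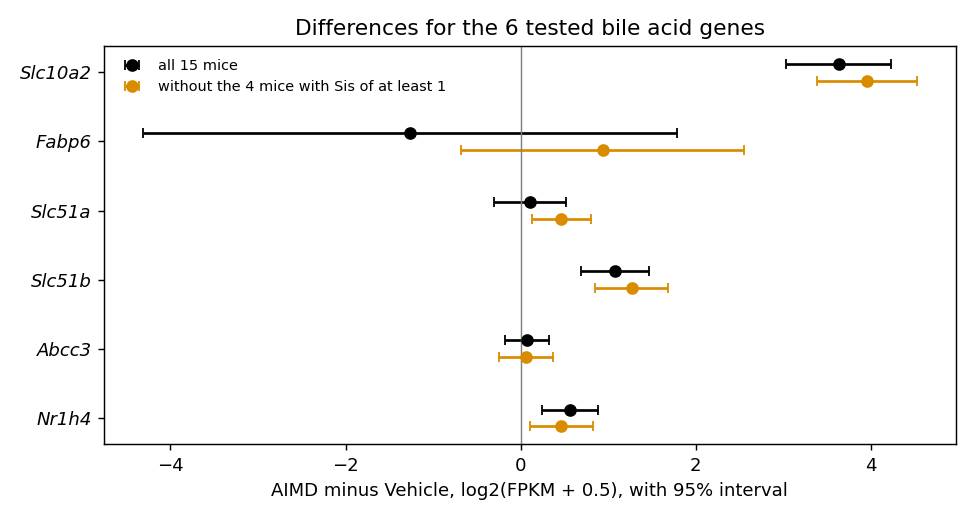
AIMD minus Vehicle difference on the log2(FPKM + 0.5) scale with its 95% interval for the 6 tested genes, over all 15 mice (black) and without the 4 mice with Sis of at least 1 FPKM (orange). The intervals of Slc10a2, Slc51b and Nr1h4 lie above 0 in both, and that of Fabp6 is the widest.

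Abcc3, a basolateral exporter of conjugated organic anions, did not pass the test. It was at 36.8 to 58.8 FPKM in AIMD mice, against 36.8 to 52.8 FPKM in vehicle-treated mice. The difference was 0.07 on the log2 scale (95% interval -0.18 to 0.33, limma adjusted p = 0.677). Abcc2, its luminal counterpart, was under the filter, at 0.0586 to 0.571 FPKM in AIMD mice, against 0.0316 to 1.12 FPKM in vehicle-treated mice. It had 162 and 85 reads in the groups, of which AIMD replicate 6 held 64 and vehicle replicate 8 held 42. Both are among the 4 mice with Sis of at least 1 FPKM. The exact permutation test gave p = 0.756.

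Nr1h4, which encodes the nuclear bile acid receptor FXR on the minus strand of chromosome 10 (chr10:89454234-89533585, GRCm38), was significantly higher in AIMD mice. Its level was 33.1 FPKM in the lowest AIMD mouse, 48.7 in the median and 56.2 in the highest. In vehicle-treated mice it was 22.3, 27.3 and 41.5 FPKM. The ranges overlapped, with 4 of 7 AIMD mice above the highest vehicle-treated mouse. The means were 44.7 ± 8.20 (SD, n = 7) and 30.3 ± 6.98 FPKM (SD, n = 8), a log2 difference of 0.57 (standard error 0.15, limma adjusted p = 0.00818). Without the 4 mice with Sis of at least 1 FPKM the difference was 0.46 and the adjusted p was 0.0506, above the threshold. The call was also lost with a score of epithelial markers (0.45, adjusted p = 0.0678) or of smooth muscle markers (0.45, adjusted p = 0.0558) as a covariate. It was kept over all mice with the level of Sis as a covariate (0.53, limma adjusted p = 0.00734). With a score of circadian clock genes as a covariate it was also kept (0.57, limma adjusted p = 0.00312). The exact permutation test over all mice gave p = 0.00451. The summed level of 14 absorptive epithelium markers was 10245 to 14289 FPKM in AIMD mice, against 8210 to 11217 FPKM in vehicle-treated mice. That of 8 smooth muscle markers was 216 to 821 FPKM in AIMD mice, against 523 to 3059 FPKM in vehicle-treated mice. Of the first list 3 genes were higher and 2 were lower with AIMD, and of the second 0 and 2. Over all tested genes 19.4% were higher and 16.7% were lower. The part of these lists in the result was not tested beyond the covariate fits above.

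The other receptor, Gpbar1, and 2 of the genes known to be raised by FXR, Nr0b2 and Fgf15, were near the limit of detection. Nr0b2 (SHP), a repressor induced by FXR, had 0 reads in AIMD mice, and 1 read was found in 1 vehicle-treated mouse. A count of 0 allows up to 3 reads of 86861745, counting error only. Fgf15 had 7 reads over the AIMD group and 14 over the vehicle group, of which vehicle replicate 4 held 8, and its highest level was 0.397 FPKM. These are the smallest whole reads that fit its FPKM. Gpbar1, the cell-surface bile acid receptor, had 2 reads, both in AIMD replicate 4. A difference in these 3 genes was not detectable at this depth (exact permutation test, p = 1.00 for Nr0b2, 0.241 for Fgf15 and 0.467 for Gpbar1).

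The order of the genes by median FPKM differed between the groups. In AIMD mice it was Slc51b, Slc51a, Slc10a2, Nr1h4, Abcc3 and Fabp6, and the ranges of Slc51a and Slc10a2, of Nr1h4 and Abcc3 and of Abcc3 and Fabp6 overlapped. In vehicle-treated mice it was Slc51a, Slc51b, Abcc3, Fabp6, Nr1h4 and Slc10a2, and the ranges were apart only between Slc51b and Abcc3 and between Nr1h4 and Slc10a2 among these neighbours. The order depends on the length assigned to a gene, and the GENCODE exon lengths are 2.55 times those behind the FPKM for Slc10a2, 2.00 times for Slc51a and 1.45 times for Slc51b. With the GENCODE lengths the AIMD median of Slc10a2 was 34.1 FPKM, below Nr1h4 and Abcc3, and the vehicle median of Slc51b was 75.7 FPKM, above the 63.3 FPKM of Slc51a.

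The model of the study included when the mice were sacrificed, which the labels do not give. A score of 15 circadian clock genes split the mice into AIMD replicates 1 to 3 with vehicle replicates 1 to 4 (cluster 1) and AIMD replicates 4 to 7 with vehicle replicates 5 to 8 (cluster 2). Slc10a2 was higher in AIMD mice by 3.99 in cluster 1 and by 3.24 in cluster 2 on the log2 scale (limma adjusted p = 3.81e-06 and 9.71e-06), where 13.3% and 29.9% of genes were called. Slc51b was higher by 1.35 and by 0.80 (limma adjusted p = 0.00294 and 0.0174). Nr1h4 differed by 0.40 in cluster 1, which did not pass (limma adjusted p = 0.199), and was higher by 0.74 in cluster 2 (limma adjusted p = 0.00917). Without the 4 mice with Sis of at least 1 FPKM, which leaves 1 vehicle-treated mouse in cluster 2, Slc51b was at 0.96 and Nr1h4 at 0.70 there, and neither passed (limma adjusted p = 0.214 and 0.284). Slc51a differed by 0.55 and by -0.33 (limma adjusted p = 0.0894 and 0.197). The difference between the clusters passed for 0 of 11983 genes in limma, with 536 at an unadjusted p under 0.05, of which 1 was a bile acid gene, Slc51a (unadjusted p = 0.00633, adjusted p = 0.953). Among vehicle-treated mice, Slc51a was higher in cluster 2 by 0.82 (limma adjusted p = 0.0227) and Slc10a2 by 1.04 (limma adjusted p = 0.0443), where 9.61% of genes were called. Without the mice with Sis of at least 1 FPKM these values were 0.41 and 0.58, and neither passed (limma adjusted p = 0.752 and 0.778). In vehicle-treated mice 3 of the 4 mice of cluster 2 had Sis of at least 1 FPKM, so the clock cluster and the small-intestine markers cannot be told apart.

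**Figure D4:**
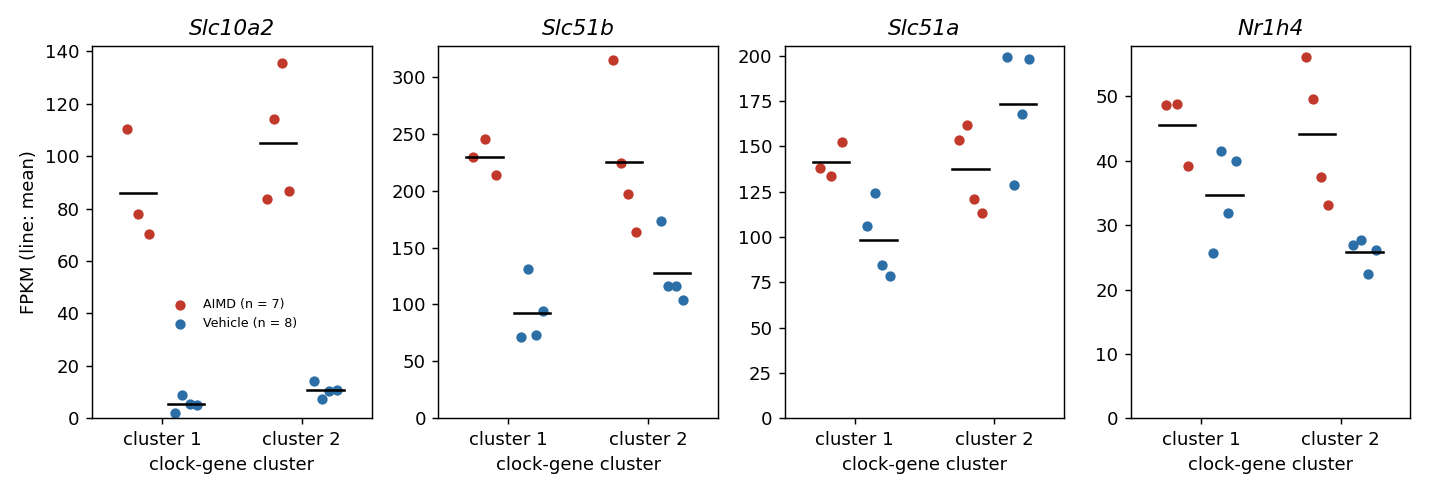
FPKM of 4 bile acid genes in each mouse, with the mice split by their clock-gene cluster and the mean of each set as a black line. Slc10a2 is higher in AIMD mice in both clusters, while the mean of Slc51a is 142 against 98.3 FPKM in cluster 1 and 137 against 173 FPKM in cluster 2, neither difference past the threshold.

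Across mice, with the group means taken out, Slc51a and Slc51b had a Pearson r of 0.67 over 15 mice (permutation test within groups, p = 0.0165, 0.0495 adjusted over 6 pairs) and a Spearman rho of 0.65 (adjusted p = 0.118). Without the 2 mice farthest from the median of Slc51a the r was 0.62 over 13 mice, which did not pass (permutation test, adjusted p = 0.0717). Slc10a2 and Slc51b had an r of 0.63 (adjusted p = 0.0571) and a rho of 0.47 (adjusted p = 0.150), and an r of 0.71 without the 2 mice farthest from the median of Slc10a2. Nr1h4 and Slc51b had an r of 0.29 and a rho of 0.43 (adjusted p = 0.325 and 0.150), and an r of 0.25 without 2 mice. Over the 11 mice with Sis under 1 FPKM, the r of Slc51a with Slc51b was 0.63 and that of Nr1h4 with Slc51b was 0.70, and neither passed (permutation test, adjusted p = 0.175 for both). With the clock cluster also taken out the 3 values of r were 0.51, 0.48 and 0.78, and the last passed (permutation test, adjusted p = 0.0331). Fabp6 fell into separate clusters of mice, so no pooled r is given for its pairs. Over the 11 mice with low Sis, its rank correlation was 0.12 with Slc10a2 and 0.25 with Slc51b (permutation test within groups, adjusted p = 0.774 and 0.629). Nr0b2 with Fgf15 had an r of 0.58 (permutation test within groups, adjusted p = 0.187). That value rests on the 1 read of Nr0b2, so it cannot describe the pair.

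Among the tested genes whose levels most resembled Slc10a2 across the 15 mice, with group means taken out, were Tob2 (r = 0.90), Fam101b (0.88), Mgat3 (0.88) and Itsn2 (0.87). Those most like Nr1h4 were Ccdc93 (0.84), Ms4a12 (0.83), Dhrs9 (0.81), Shtn1 (0.81) and Prkab1 (0.80). The points share their libraries, and the values are given as a description.

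Among 66 tested genes of 6 further bile acid lists, 15 rose and 11 fell with AIMD, or 39.4%, against 36.1% of all tested genes. Of 22 tested partners and regulators of FXR and bile acid genes, 8 were higher and 1 was lower, with a median difference of 0.28. Over all tested genes the shares were 19.4% higher and 16.7% lower. Rxra, the partner of FXR, was at 10.3 to 18.3 FPKM in AIMD mice, against 4.81 to 11.3 FPKM in vehicle-treated mice, a log2 difference of 0.80 (limma adjusted p = 0.00202). Hnf4a, a regulator of enterocyte and liver genes, was at 118 to 188 FPKM and at 43.9 to 85.9 FPKM (1.25, limma adjusted p = 4.64e-05). Its AIMD values were all above its vehicle values, which held for 5.26% of all tested genes. Its relative Hnf4g lay at 1.00 to 2.32 FPKM in AIMD mice, against 0.245 to 0.884 FPKM in vehicle-treated mice. It is 1 of the 8 counted as higher, but it passed the filter only through the AIMD mice, so its values are a description. Crip1 fell by 0.77 on the log2 scale (limma adjusted p = 0.0362), a call kept in 6 of the 15 fits with 1 mouse left out. Nr5a2 (LRH-1), which acts with FXR on several of its targets, had medians of 2.63 and 2.64 FPKM and a difference of 0.07 (limma adjusted p = 0.747).

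Of 6 tested genes described as FXR targets, 2 were higher and 1 was lower, beside 19.4% and 16.7% of all tested genes. The membrane proteoglycan Sdc1 rose by 0.52 and the carbonic anhydrase Car12 by 0.56, and the phospholipid transfer protein Pltp fell by 0.62 (limma adjusted p = 0.00360, 0.0211 and 0.00260). Without the 4 mice with Sis of at least 1 FPKM, Car12 was at 0.34 and did not pass (limma adjusted p = 0.138). Of 13 tested further transporters, 1 was higher and 3 were lower, with a median of -0.13. Slc10a5, a relative of Slc10a2, rose by 1.43 and lay at 1.26 to 4.73 FPKM in AIMD mice, against 0.435 to 1.21 FPKM in vehicle-treated mice (limma adjusted p = 6.25e-05). Slco3a1, Slc10a7 and Abcb1a fell by 0.64, 0.62 and 0.57 (limma adjusted p = 0.0369, 0.00262 and 0.0435). The calls of Slco3a1 and Abcb1a were each kept in 6 of the 15 fits with 1 mouse left out. Slc10a1 and Slco1a1, transporters of the liver, were at 0 in all mice.

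Of 10 tested genes of bile acid synthesis and conjugation, 0 were higher and 2 were lower, with a median of -0.14. Over all tested genes 19.4% were higher and 16.7% were lower. Hsd3b7, an early enzyme of synthesis, fell by 0.43 and Acot8, a peroxisomal thioesterase, by 0.65 (limma adjusted p = 0.00747 and 0.0142). Cyp7a1, the rate-limiting enzyme in the liver, was at 0 in all mice.

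Of 12 tested genes of bile acid detoxification, 4 were higher and 2 were lower, beside 19.4% and 16.7% of all tested genes. Ugt1a1, which glucuronidates bilirubin and other substrates, was at 4.88 to 15.6 FPKM in AIMD mice, against 0.275 to 3.43 FPKM in vehicle-treated mice (2.56 on the log2 scale, limma adjusted p = 1.58e-05). Cyp3a13 rose by 0.99 to a median of 386 FPKM, and Gsta1, a glutathione transferase, by 1.25 (limma adjusted p = 0.000480 and 0.000151). Cyp3a44 was at 0 to 0.0388 FPKM in AIMD mice, against 0.485 to 5.04 FPKM in vehicle-treated mice. It is 1 of the 2 counted as lower, but it passed the filter only through the vehicle-treated mice, so its values are a description. The Cyp3a genes are close copies, and how reads were split between them is not known. Of 6 tested targets of the xenobiotic receptor PXR and the vitamin D receptor, 2 were higher and 3 were lower. S100g, a calcium-binding protein induced by vitamin D, fell by 2.26, from a median of 351 FPKM to one of 68.7 (limma adjusted p = 2.38e-05), and Gstm1 fell by 0.94 (limma adjusted p = 0.00749).

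The labelled tissue was checked against marker genes. The colon epithelium gene Car1 was at a mean of 26472 FPKM in AIMD mice, against 22755 FPKM in vehicle-treated mice. Small-intestine markers ranged from Slc2a2, a sugar transporter that did not pass 0.0129 FPKM in any mouse, to Mep1a, a brush-border protease at 168 to 319 FPKM. Of 9 tested enteroendocrine markers 6 were higher in AIMD mice and of 9 tested macrophage markers 4 were higher, beside 19.4% of all tested genes. The summed level of 9 enteric neuron and glia markers was 2.92 to 5.67 FPKM in AIMD mice, against 5.29 to 84.7 FPKM in vehicle-treated mice. Their part in the results was not tested.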

How the data were processed

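RNA was measured in the cecum of 7 AIMD and 8 vehicle-treated mice. The authors prepared stranded poly-A libraries, aligned reads with STAR to GRCm38, counted them with featureCounts and tested counts with DESeq2, and deposited FPKM per gene. The strand setting and versions are not given in the sources used here. Of 45808 rows, 24279 were above 0 in some mouse.

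FPKM as deposited were filtered (at least 0.5 in at least 7 mice), divided by size factors from 13594 genes, which were 1.01 in every mouse, and tested as log2(FPKM + 0.5) with limma 3.58.1 (R 4.3.3) at an adjusted p of 0.05. Filtering after the size factor instead, tried once counts had been seen, left 11971 genes and is an alternative only. Whole reads were recovered from the FPKM steps (tolerance 0.01 read) for depth and an alternative fit. In data simulated over 11983 genes, 75% of 100 genes changed by 1 on the log2 scale were recovered. Of 100 genes changed by 2, 100% were recovered, and 7.41% of the 189 calls were false. The simulation changed fewer genes than were called here and gave all genes the same scatter between mice. Its shares may therefore not hold for these data. Single values were tested by two-sided exact permutation. The study housed several mice in each cage, and the labels do not give the cage of a mouse. The tests treat mice as independent, and shared cages could not be taken into account.

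The genes, lists and clock score were chosen with earlier results of these data known. Named genes were the 10 genes, up to 4 called genes of largest change per list, Rxra and Nr5a2. A few genes that these rules select are not reported here. The 4 mice with Sis of at least 1 FPKM were set apart after the data were seen. Alternatives were other scalings, pseudocounts (0.1 and 1), filters, tests, covariates and left-out mice.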

Additional observations from a re-analysis of the deposited data

Results flagged for a closer look

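Of 18 groups of mice with differing FPKM of a bile acid gene, 4 held a mouse set far from the rest by Dixon's criterion. By chance that criterion marks about 1 in 20 groups of normally distributed values. It was applied here to FPKM without logs, so the chance rate in these groups is not known. For Nr0b2 and Gpbar1 a single mouse of the group had reads, which meets the criterion by construction. Fabp6 was at 225 FPKM in AIMD replicate 6, with the next AIMD mouse at 43.5. Abcc2 was at 1.12 FPKM in vehicle replicate 8, with the next at 0.126. Nr0b2 was at 0.0794 FPKM in vehicle replicate 4, from 1 read, with the other vehicle-treated mice at 0. Gpbar1 was at 0.223 FPKM in AIMD replicate 4, from 2 reads, with the other AIMD mice at 0. AIMD replicate 6 and vehicle replicate 8 are among the 4 mice with Sis of at least 1 FPKM.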

How the results depend on the processing

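Slc10a2 and Slc51b kept their direction and their side of the threshold over all mice under every alternative run. The number of bile acid genes called was 3 with each mouse left out in turn, and the number called in the 6 further lists, 26 over all mice, was 22 to 27. With each mouse left out, the log2 difference was 3.42 to 3.77 for Slc10a2, 0.99 to 1.17 for Slc51b, 0.51 to 0.63 for Nr1h4, 0.00 to 0.19 for Slc51a, 0.02 to 0.13 for Abcc3 and -1.94 to -0.54 for Fabp6. The filter after the size factor called 3 of the bile acid genes and 4315 of 11971 genes. Scaling to equal total FPKM outside the mitochondria moved the share of called genes that were higher from 53.8% to 62.2%.

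Without the 4 mice with Sis of at least 1 FPKM, chosen after the data were seen, Fabp6 was at 0.93, Slc51a at 0.46 (now past the threshold), Nr1h4 at 0.46 (no longer past it) and Nr5a2 at -0.063. This leaves 1 vehicle-treated mouse in cluster 2, assumed to vary like the others, and there Nr1h4 was at 0.70 and Slc51b at 0.96 (neither past the threshold), Fabp6 at 1.77, Abcc3 at -0.066 and Slc51a at 0.13. With the epithelial covariate Fabp6 was at 0.13, Slc51a at -0.035 and Nr1h4 at 0.45, and with the smooth muscle covariate Fabp6 was at 0.12, Abcc3 at -0.092, Nr1h4 at 0.45 and Nr5a2 at -0.0298. The exact rank-sum test put Abcc3 at -0.00903 and Nr5a2 at -0.00601, and with each mouse left out Nr5a2 was at -0.011 to 0.142. Clusters split at the median put Slc51a at 0.60 in cluster 1, past the threshold. The r of Slc51a with Slc51b fell to 0.51 with clusters taken out, 0.63 without the 4 mice and 0.62 without 2 mice, none past the threshold, and that of Slc10a2 with Slc51b was 0.71 without 2 mice and that of Nr1h4 with Slc51b was 0.78 with clusters taken out, and both passed. Of 620 values of the 20 genes named from the further lists, 569 kept their direction and side of the threshold, 47 no longer passed it and 4, all of Nr5a2, changed sign. The calls of Crip1, Slco3a1 and Abcb1a each held in 6 of the 15 fits with a mouse left out. The cause was not tested.

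The labels do not say that the replicate numbers pair the mice. The deviations of same-numbered mice correlated above 0.1 for 2 of 7 numbers, which cannot settle whether they do. Apart from number 4, same-numbered mice fell in the same clock cluster. With the replicate block 4651 genes were called, and the log2 ratio of Fabp6 to Slc10a2 was -4.26 (adjusted p = 0.0781), past the threshold before. Read depth limits Nr0b2, Fgf15, Gpbar1 and Abcc2.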
